A study of Homo sapiens with 16 samples.

Results

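CC-671 is a small-molecule kinase inhibitor with TTK and CLK2 as its targets. The late response to its lower dose was read out as poly-A RNA in CAL51 cells. This human line, established from a breast cancer without hormone receptors or HER2 amplification, has a near-diploid karyotype. It was used at passage 10 and grown in DMEM with fetal bovine serum. The comparison rests on 5 of the 16 libraries of the series: 3 libraries of cells that received 3 µM CC-671 for 24 h and 2 libraries of cells that received the DMSO vehicle for 24 h, picked by their titles. The remaining 11 libraries are vehicle and 3 µM at 6 h, and 10 µM at 6 and 24 h, and were used here to share the estimate of spread and to set time and dose beside the main comparison. The labels call the replicates biological but do not say whether they were separate cultures on separate days, so p-values cover just the spread between libraries, which may be technical. All cells were of a single line, and the vehicle group had the fewest libraries.

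TTK, also called MPS1, is a kinase that keeps cells from leaving mitosis until every chromosome is attached to the spindle. CLK2 and its relatives CLK1, CLK3 and CLK4 phosphorylate SR proteins, the RNA-binding proteins that choose splice sites, and through them the CLK kinases control the splicing of many transcripts, their own included. Cells that leave mitosis with missegregated chromosomes can activate the p53 pathway. Blocks in amino acid supply, protein folding or translation act through the integrated stress response, in which phosphorylated eIF2 lowers general translation while the transcription factor ATF4 and its targets rise.

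Between 104609173 and 115988525 read pairs were counted at genes in each of the 5 libraries. Replicates differed by more than sampling noise, at a chi-square of 2.51 to 7.97 per gene, so each was counted as 1 sample. Epithelial keratins KRT8, KRT18 and KRT19 and the mesenchymal genes VIM and FN1 were read in every library at levels of 208 CPM (read counts scaled to library size) or more. The hormone receptor genes ESR1 and PGR were at 0.0445 CPM or less, and ERBB2 was at 115 to 192 CPM. The leukocyte markers MS4A1 and NKG7 were at 0 in all 5 libraries. The summed leukocyte level was 12.5 to 13.3 CPM in vehicle and 6.55 to 7.17 CPM at 3 µM, nearly all of it PTPRC. The other 2 leukocyte markers tested, CD14 and LYZ, were higher at 3 µM but at 0.448 CPM or less in every library. The summed fibroblast markers were 278 to 284 CPM and 235 to 245 CPM, mostly COL3A1, with DCN and FAP at 0.018 CPM or less. The endothelial ones were 18.5 to 18.8 and 9.68 to 10.2 CPM, mostly CDH5. All libraries came from a single cultured line, so these sums do not show that other cell types were present. In bulk RNA, fewer cells of a kind and less RNA per cell cannot be told apart. Read pairs outside annotated exons made up 5.80 ± 0.171% of uniquely aligned pairs at 3 µM (SD, n = 3) and 4.43 ± 0.238% in vehicle (SD, n = 2). Their part in the changes of single genes was not tested.

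At 24 h, 3 µM CC-671 changed a majority of the genes measured. Of 22007 genes tested, 6529 (29.7%) were higher and 6810 (30.9%) lower than in vehicle at an adjusted p under 0.05, by the quasi-likelihood test of edgeR with Benjamini-Hochberg adjustment over all genes, so 60.6% were called. Most changes were small. The median absolute log2 fold change of the called genes was 0.419, and 1898 genes (8.62%) rose and 560 (2.54%) fell at least 2-fold. With a filter of 1 CPM in 5 libraries these became 605 and 197. The 3 treated and 2 vehicle libraries did not overlap at 75.4% of all genes tested (37.2% with treatment above and 38.3% below), and at 99.5% of the called genes they stood apart in the direction of the call. Groups that stand apart at single called genes, as given below, are thus the rule among called genes. Calls are relative to TMM scaling, whose factors were 1.039 to 1.042 at 3 µM and 0.969 to 0.971 in vehicle. Without these factors the median of all genes moved by 0.101 on the log2 scale and 62.9% of the calls were rises instead of 48.9%. Gene groups described below as higher or lower kept the sign of their median without the factors unless it is stated that they did not. Counts of called members in these groups are to be set beside the 29.7% higher and 30.9% lower of all genes tested. At 6 h these shares were 31.6% and 31.6%.

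The split between directions differed with the level of the gene over all libraries. Among genes whose average log2 CPM was below 0, 27.2% were called higher and 11.3% lower. Among those at 6 or more, 24.5% were called higher and 50.8% lower. A gene read near 0 in vehicle passed the filter on low counts only through groups in which it was higher, so the split among the weakest genes rests in part on the filter.

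Described by the largest differences in CPM, a measure that also grows with transcript length, the transcripts that lost most were cytoskeletal. ACTB, the cytoplasmic beta-actin gene, was at 7395 and 7379 CPM in vehicle and at 4582, 4539 and 4629 CPM at 3 µM, a log2 fold change of −0.69 ± 0.03 (SE, adjusted p = 9.3e-18). TUBB, a beta-tubulin, was at 2684 and 2672 CPM and at 1754, 1772 and 1751 CPM, a change of −0.61 ± 0.03. Both genes were lower in all 3 treated libraries, by about the same ratio in each. The other 6 were FLNA, TPM1 and ACTG1 of the actin system, TUBA1B, an alpha-tubulin, the retrotransposon-derived gene PEG10 and the glycolytic gene GAPDH. On the other side stood FTH1 and FTL, which encode the ferritin heavy and light chains, the elongation factors EEF2 and EEF1A1 with the EEF1A1 pseudogene EEF1A1P5, whose reads cannot be told apart from those of its parent with certainty, ID3, SPP1, the secreted phosphoprotein osteopontin, and PSAT1, an enzyme of serine synthesis. FTH1 was at 3253 and 3215 CPM in vehicle and at 4331, 4305 and 4485 CPM at 3 µM (0.44 ± 0.04, adjusted p = 2.99e-11), and EEF2 at 1836 and 1823 against 2730.0, 2695 and 2700.0 CPM (0.57 ± 0.04, adjusted p = 1.14e-13).

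**Figure D1:**
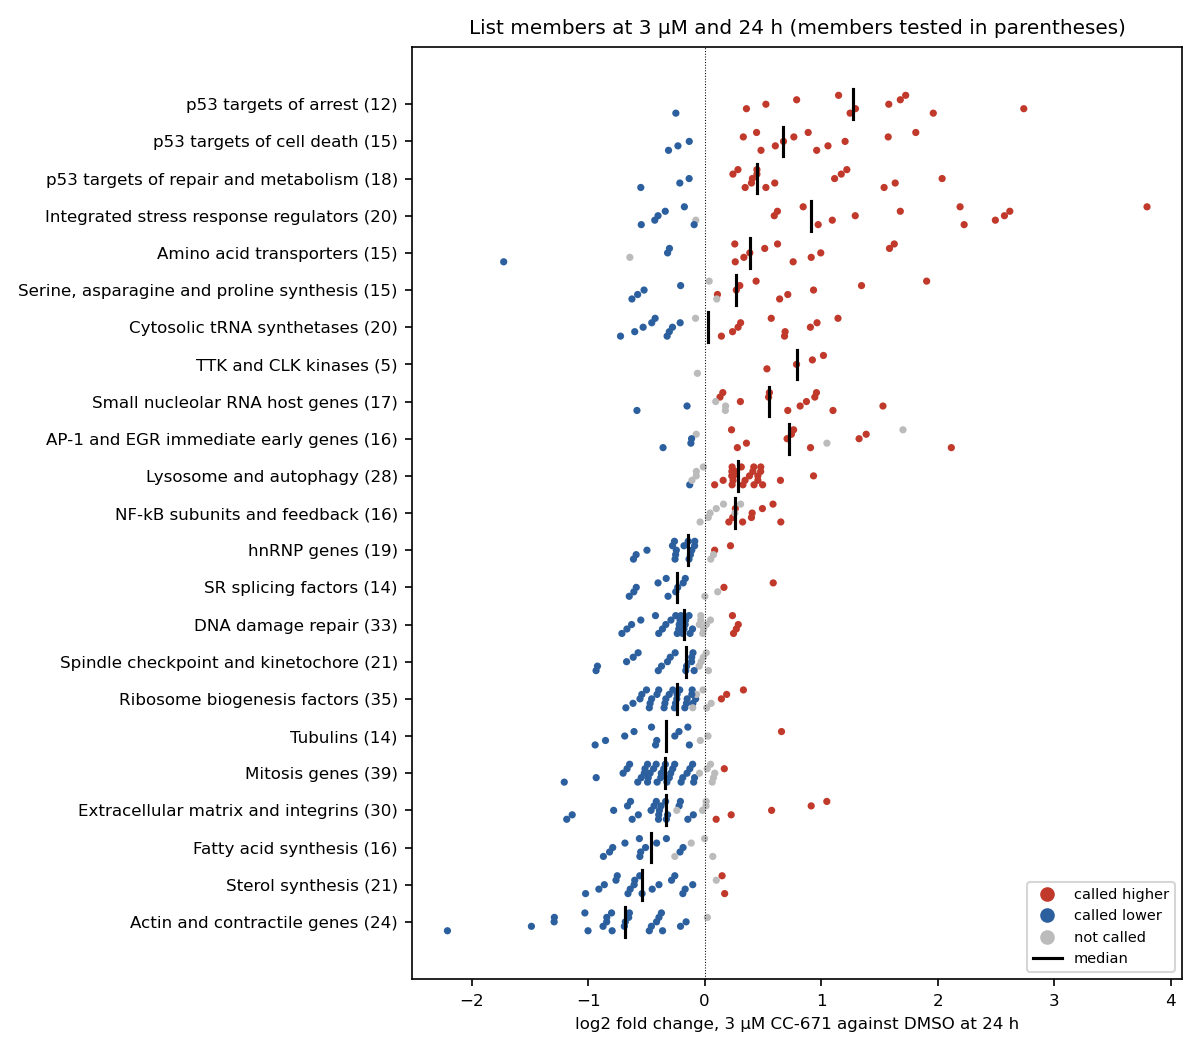
Each point is 1 gene, placed by its log2 fold change at 3 µM against vehicle at 24 h; rows are gene lists with the number of members tested, bars are list medians, and colours mark the edgeR calls. Medians run from 1.27 for p53 targets of arrest to −0.69 for actin and contractile genes.

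The genes of the named targets and of the other CLK kinases were read first. CLK1, CLK2, CLK3 and CLK4 all rose and TTK was not called. CLK3 was at 36.2 and 37 CPM in vehicle and at 74.8, 73.5 and 74.3 CPM at 3 µM (1.02 ± 0.03, adjusted p = 1.47e-19), CLK4 changed by 0.93 ± 0.05, CLK1 by 0.79 ± 0.04 and CLK2 by 0.54 ± 0.06 on the log2 scale. TTK was at 103 and 101 CPM and at 96.9, 98.6 and 97.3 CPM, a difference of −0.06 ± 0.04 (adjusted p = 0.22), and without scaling factors its sign turned to 0.04. The order among the CLK genes was not the same at 6 h, when the log2 fold change was 1.34 for CLK4, 0.99 for CLK1, 0.77 for CLK3 and 0.21 for CLK2. Between 6 and 24 h the effect grew for CLK3 and CLK2 and shrank for CLK4 and CLK1, each by the test of the difference (adjusted p = 5.47e-05, 0.00437, 4.87e-06 and 0.00521). The call for CLK1 was lost without scaling factors (adjusted p = 0.0619). All 5 genes, TTK included, had been called higher at 6 h. For TTK too the effect was smaller at 24 h by the test of the difference. At 10 µM and 24 h, 4 of the 5 were called higher and 1 lower than vehicle. With the replicate number as a block TTK was called lower at 3 µM and 24 h (−0.09, adjusted p = 0.0483 by edgeR).

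Of the 14 SR splicing factor genes, the substrates of the CLK kinases, 10 fell and 2 rose, with a median of −0.24 against 0.0008 over all genes tested. SRSF2 was at 458 and 460.0 CPM in vehicle and at 298, 303 and 302 CPM at 3 µM (−0.61 ± 0.03, adjusted p = 1.47e-16). SRSF10 changed by −0.65, SRSF7 by −0.59 and SRSF3 by −0.40, whereas SRSF12 rose by 0.59 and SRSF11 by 0.17. Of the 19 hnRNP genes, a second family of splicing regulators, 15 fell and 2 rose, with a median of −0.14. Without scaling factors the hnRNP count was 9 lower and 4 higher. HNRNPDL was at 445 and 441 CPM and at 291, 299 and 294 CPM (−0.59 ± 0.03), after a rise of 0.65 at 6 h, and the difference between the times was −1.24 (adjusted p = 1.53e-17). At 6 h, 11 hnRNP genes had been higher and 7 lower, with a median of 0.30. The 32 core spliceosome genes split, with 10 higher and 14 lower, or 16 and 7 without scaling factors. In the main fit 31.3% of them were higher and 43.8% lower, against 29.7% and 30.9% of all genes tested. PRPF8, the scaffold of the catalytic spliceosome, went from 597 and 614 CPM to 279, 272 and 269 CPM (−1.15 ± 0.07, adjusted p = 3.35e-08), while PRPF3, of the U4/U6 particle, went from 59 and 60.4 to 112, 113 and 115 CPM (0.93 ± 0.03, adjusted p = 3.29e-19). The treated and vehicle libraries did not overlap at either gene, as at 99.5% of all called genes.

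By rule, the 15 largest rises among genes whose average log2 CPM over all libraries was at least 1, and whose groups did not overlap, were LTA, CCR6, PTGDR2, NUPR1, CCDC13, DCAF4L1, OVGP1, DMGDH, GUCA1B, ZDHHC11, KANK3, GDF15, DRP2, TRIB3 and COL7A1, at log2 fold changes of 5.39 to 2.62. CCR6 and PTGDR2 were below 0.1 CPM on average in vehicle at 24 h. They passed the cut on the average through groups in which they were higher. The vehicle levels of DMGDH, COL7A1 and CCDC13, given next, also lay below the cut, so the same holds for these genes. DMGDH, a mitochondrial enzyme of choline breakdown, was at 0.409 and 0.581 CPM in vehicle and at 3.82, 3.72 and 3.58 CPM at 3 µM (2.91 ± 0.14, adjusted p = 2.72e-16). COL7A1, the collagen of anchoring fibrils, was at 1.74 and 1.92 CPM and at 13.2, 9.72 and 10.8 CPM (2.62 ± 0.19, adjusted p = 1.46e-07). Treated replicate 1 was the highest of the 3 at COL7A1. That the groups stood apart at both genes follows from the rule. CCDC13, a coiled-coil protein gene, went from 0.712 and 0.729 CPM to 7.5, 6.39 and 6.65 CPM, a rise of 3.25 that was smaller than the 4.54 seen at 6 h (adjusted p of the difference = 3.7e-07).

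Among the 15 largest falls by the same rule were GADL1, SMYD3, CNN1, BMP5, GPD1L, PIGN, GBP1, NES, TBCD, TMEFF2, ATP8A1, THSD4, TRAPPC9 and FRZB, at log2 fold changes of −2.74 to −1.66. TBCD, a cofactor that folds beta-tubulin, was at 131 and 131 CPM in vehicle and at 42, 37 and 38.3 CPM at 3 µM (−1.74 ± 0.04, adjusted p = 2.24e-22). FRZB, a secreted antagonist of Wnt ligands, was at 79.1 and 76.9 CPM and at 24.4, 25.9 and 23.8 CPM (−1.66 ± 0.04, adjusted p = 5.97e-22). PIGN, an enzyme of GPI anchor synthesis, went from 44.4 and 43.1 CPM to 11.7, 11.6 and 11.2 CPM, and ATP8A1, a phospholipid flippase, from 99.6 and 94.4 CPM to 28.9, 31.9 and 30.4 CPM. The rule kept only genes without overlap, so treated libraries below both vehicle libraries at these 4 genes are no further result. At all 4 the effect at 24 h was below that at 6 h by the test of the difference. At 6 h FRZB had been at −0.04 (adjusted p = 0.48) and TBCD at −0.39.

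Genes of the p53 pathway were mostly higher at 24 h, most clearly those that stop the cell cycle. Whether p53 itself raised them was not tested. Of 12 p53 targets of arrest, 11 rose, 8 of them at least 2-fold, and 1 fell, with a median log2 fold change of 1.27 against 0.87 at 6 h. CDKN1A, the inhibitor p21 of cyclin-dependent kinases, was at 57.3 and 58.1 CPM in vehicle and at 232, 222 and 220.4 CPM at 3 µM (1.96 ± 0.04, adjusted p = 2.24e-22). GADD45A, an inhibitor of the mitotic kinase CDK1, was at 18 and 17.6 CPM and at 59.1, 58 and 59.4 CPM (1.73 ± 0.15, adjusted p = 1.59e-06). Every treated library was above every vehicle library at both. SESN2 and SESN1, sestrins that restrain mTORC1, rose by 1.68 and 1.30, and the kinase gene PLK3 by 1.58. PLK2 went the other way, from 550.4 and 536 CPM to 465, 459 and 449 CPM (−0.25 ± 0.03).

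Of 15 p53 targets that act in cell death, 12 rose and 3 fell, with a median of 0.68 at 24 h and 0.23 at 6 h. PMAIP1 (NOXA), a BH3-only protein that sets mitochondria up for apoptosis, was at 9.17 and 8.57 CPM and at 30.9, 31.6 and 31.1 CPM (1.81 ± 0.08, adjusted p = 2.44e-13). The death receptor FAS was at 8.36 and 7.42 CPM and at 18.6, 18.2 and 17.9 CPM (1.21 ± 0.06, adjusted p = 2.56e-15). BBC3 (PUMA) rose by 1.58 and AEN, an apoptosis-linked nuclease, by 1.06, whereas BID, CASP8 and APAF1 changed by −0.31, −0.23 and −0.13. The fall of APAF1 was not called without scaling factors. The effect was greater at 24 h than at 6 h for 12 of the 15 by the test of the difference, where 25.6% of all genes tested were, and smaller for 2, where 23.7% were.

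Targets with roles in repair and metabolism came up late. Of 18, 15 rose and 3 fell, or 15 and 1 without scaling factors, with a median of 0.45, whereas at 6 h 9 had been higher and 6 lower, and 14 had a greater effect at 24 h. FDXR, the mitochondrial ferredoxin reductase, changed by 2.04 at 24 h and by 0.35 at 6 h. DDB2, the damage sensor of nucleotide excision repair, was at 17.5 and 17.8 CPM in vehicle and at 42.6, 40.8 and 39.96 CPM at 3 µM (1.22 ± 0.04, adjusted p = 1.85e-18), against 0.29 at 6 h. PHLDA3, an inhibitor of AKT, was at 26.5 and 26.6 CPM and at 84.5, 80.5 and 82.3 CPM (1.64 ± 0.05), and FBXW7, a ubiquitin ligase subunit, rose by 1.12. Of 10 genes of p53 feedback and modifiers, 7 rose and 2 fell. MDM2, the ubiquitin ligase of p53, rose by 1.32, TP53INP1 by 1.10, ZMAT3 by 0.84 and PPM1D by 0.64, whereas RFWD2, another ubiquitin ligase, changed by −0.44. Paired half-sites of a p53 element were searched in the 300 bases around the start. They were found in 0 of 8 feedback, 0 of 11 arrest, 0 of 11 cell death and 0 of 16 repair and metabolism promoters. The share was 0.024% for tested genes with a promoter. In the BCL2 family, which the p53 targets PMAIP1 and BBC3 belong to, 7 of 17 members rose and 8 fell, or 8 and 5 without scaling factors, and BCL2, the survival factor, went from 36.2 and 36.2 CPM to 19.2, 20.2 and 18.8 CPM (−0.90 ± 0.04).

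**Figure D2:**
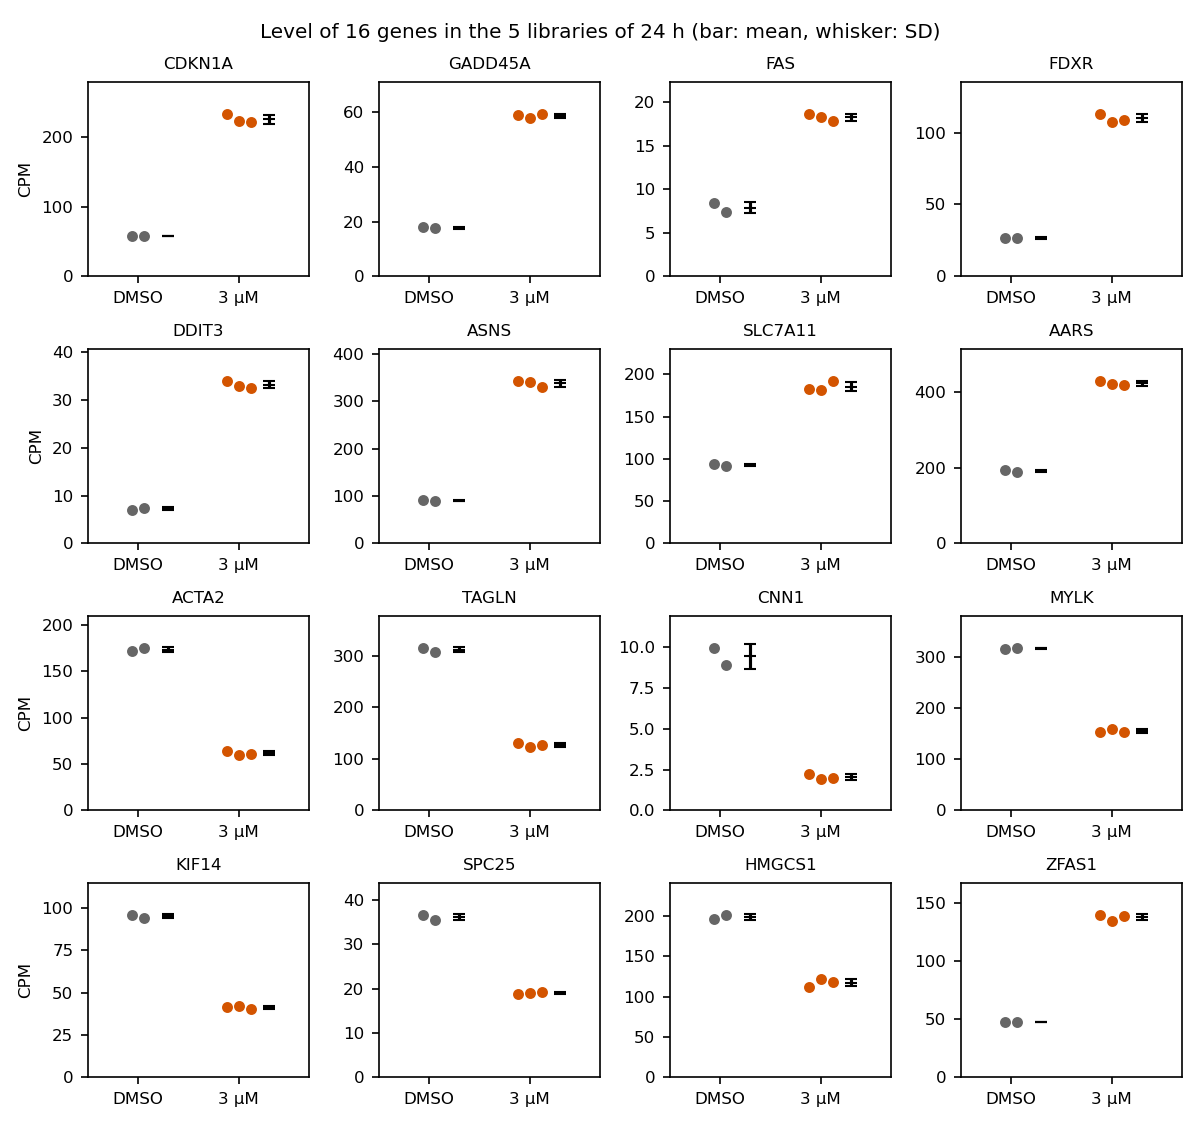
Each panel is 1 gene, with its level in CPM (linear axis from 0) in the 2 vehicle libraries and the 3 libraries at 3 µM and 24 h; the dash and whisker beside the points are the mean and SD. The groups are apart in all 16 panels, as at CDKN1A (57.3 and 58.1 CPM against 232, 222 and 220.4 CPM). The panels show called genes, and 99.5% of all called genes and 75.4% of all genes tested are apart.

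Genes of the integrated stress response were mostly higher too. Many of its targets carry the C/EBP-ATF response element (CARE), at which ATF4 binds with C/EBP partners. The promoters of 4 genes that the next values turn on are shown for that reason, from RefSeq on GRCh38.p14, with matches to TGATGNAA on either strand in capitals. The stretches lie at chr7:97872439-97872508 on the minus strand, chr15:40953231-40953300 on the plus strand, chr16:70289657-70289726 on the minus strand and chr1:212565187-212565256 on the plus strand, in that order, upstream of each start.
ASNS: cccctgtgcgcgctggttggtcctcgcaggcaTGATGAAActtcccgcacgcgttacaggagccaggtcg
CHAC1: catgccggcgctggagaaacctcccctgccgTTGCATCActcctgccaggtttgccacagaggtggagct
AARS: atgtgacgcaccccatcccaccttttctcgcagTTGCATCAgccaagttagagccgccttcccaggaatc
ATF3: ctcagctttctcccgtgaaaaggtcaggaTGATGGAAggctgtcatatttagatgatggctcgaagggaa

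Of 20 regulators of the integrated stress response, 13 rose, 9 of them at least 2-fold, and 6 fell, with a median of 0.91 at 24 h and 0.42 at 6 h. ATF4 itself was at 290.3 and 293 CPM in vehicle and at 525, 525 and 524 CPM at 3 µM (0.85 ± 0.04, adjusted p = 2.69e-17). DDIT3, which encodes CHOP, was at 7.02 and 7.5 CPM and at 34, 32.9 and 32.6 CPM (2.19 ± 0.23, adjusted p = 9.56e-06), against 0.35 at 6 h. STC2, a secreted stanniocalcin, was at 13.9 and 13.9 CPM and at 66.5, 65.1 and 63.7 CPM (2.23 ± 0.12, adjusted p = 2.26e-08). The groups did not overlap at any of these 3 genes, as at 99.5% of all called genes. CHAC1, which breaks down glutathione, changed by 2.57 ± 0.11. ATF3, a stress-induced repressor, was at 1.64 and 1.54 CPM and at 9.19, 8.8 and 8.9 CPM (2.50 ± 0.69, adjusted p = 0.00917), and its call was lost without vehicle replicate 1 or 2 (adjusted p = 0.0567 and 0.0551). The eIF2 kinase genes EIF2AK1 (HRI) and EIF2AK4 (GCN2) changed by −0.43 and −0.40, and ATF5 by −0.54.

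Genes of amino acid supply were mostly higher as well. ASNS, the asparagine synthetase whose element is shown above, was at 91 and 89.1 CPM in vehicle and at 342, 341 and 329 CPM at 3 µM (1.91 ± 0.04, adjusted p = 5.45e-23), although its change at 6 h was 0.05 (adjusted p = 0.282). Of 15 genes of serine, asparagine and proline synthesis, 9 rose and 4 fell. The effect was greater at 24 h than at 6 h, when the median was −0.42, for 13 of the 15. Over all genes tested that share was 25.6%. MTHFD2, the mitochondrial folate enzyme, was at 206 and 198 CPM and at 508, 517 and 517 CPM (1.35 ± 0.05), and PHGDH, which opens the serine pathway, rose by 0.64. MTHFD1L and SHMT1 of the folate cycle and ALDH18A1 of proline synthesis changed by −0.58, −0.52 and −0.62.

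Of 15 amino acid transporters, 11 rose and 3 fell, with a median of 0.39. SLC7A11, the cystine importer, was at 93.8 and 92.1 CPM in vehicle and at 183, 182 and 192 CPM at 3 µM (0.997 ± 0.14, adjusted p = 0.000105), after a change of −1.34 at 6 h. Its partner SLC3A2 was at 212 and 209.8 CPM and at 408, 389 and 395 CPM (0.92 ± 0.07), and the glycine transporter SLC6A9 rose by 1.63. The 20 cytosolic tRNA synthetases, which charge tRNAs with their amino acids, split into 10 that rose and 9 that fell. AARS, for alanine, was at 193 and 190.3 CPM and at 431, 422 and 420.1 CPM (1.15 ± 0.03, adjusted p = 1.15e-20). SARS, CARS, GARS and WARS rose by 0.97, 0.91, 0.69 and 0.69, whereas VARS, FARSB and IARS changed by −0.72, −0.60 and −0.53. At 6 h, 15 of the 20 synthetases had been lower and 4 higher. The effect at 24 h was above that at 6 h for 15, against 25.6% of all genes tested.

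A CARE match within 300 bases around the start was found in 6 of 13 tRNA synthetases with a promoter in the table (46.2%), namely AARS, CARS, IARS, MARS, NARS and TARS, of which 5 rose and 1, IARS, fell. The share was 3 of 18 for the stress response regulators (16.7%), 3 of 13 for the transporters, 1.88% for all tested genes with a promoter and 3.67% for all promoters of the table. It was 4.29% for genes higher at least 2-fold and 3.30% for genes lower at least 2-fold. Counting just the 250 bases before the start left 2 of 13 tRNA synthetases and 0 of 13 transporters, with the stress response regulators at 3 of 18. A match is a run of letters and not a measured binding site. The unfolded protein response of the endoplasmic reticulum was split. Of its 22 genes 6 rose and 5 fell, or 11 and 2 without scaling factors, where the sign of the median turned. HERPUD1 rose by 0.59 while HSP90B1, the chaperone GRP94, went from 2015 and 1973 CPM to 1617, 1661 and 1624 CPM (−0.29 ± 0.04) and CRELD2 fell by 0.68. HMOX1, heme oxygenase, a target of NRF2, was at 9.27 and 9.41 CPM and at 33.5, 33.6 and 35 CPM (1.87 ± 0.36, adjusted p = 0.000967). It was the 1 member of 20 NRF2 targets that rose at least 2-fold. Of the 20, 11 rose, 5 fell and 4 were not called, with a median of 0.10.

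Genes of mitosis were lower. Many are held by the DREAM complex at a cell cycle homology region (CHR, TTTGAA) near a CCAAT box that NF-Y binds, and repression by DREAM is a known arm of the p53 response. The promoters of 5 mitosis genes that hold both are shown, from RefSeq on GRCh38.p14, with CCAAT and TTTGAA matches on either strand in capitals. They cover the 80 bases before the start, at chr10:92593050-92593129 on the plus strand, chrX:70290024-70290103 on the plus strand, chr5:163460552-163460631 on the plus strand, chr15:59105066-59105145 on the plus strand and chr16:23678809-23678888 on the plus strand. HMMR holds a pair of overlapping CCAAT matches and 2 adjoining CHR matches.
KIF11: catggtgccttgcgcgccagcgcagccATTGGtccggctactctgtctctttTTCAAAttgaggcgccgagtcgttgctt
KIF4A: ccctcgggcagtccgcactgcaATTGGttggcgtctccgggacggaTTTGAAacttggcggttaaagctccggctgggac
HMMR: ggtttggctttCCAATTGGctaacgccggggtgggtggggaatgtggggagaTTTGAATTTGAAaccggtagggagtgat
CCNB2: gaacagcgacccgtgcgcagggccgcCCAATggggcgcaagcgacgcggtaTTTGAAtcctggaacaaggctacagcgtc
PLK1: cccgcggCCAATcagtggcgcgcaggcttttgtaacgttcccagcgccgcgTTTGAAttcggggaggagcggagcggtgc

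Of 39 mitosis genes, 32 fell and 1 rose, with a median of −0.34, and without scaling factors 26 fell and 6 rose. KIF14, a kinesin of the midbody, was at 95.7 and 94.1 CPM in vehicle and at 41.4, 41.9 and 40.2 CPM at 3 µM (−1.21 ± 0.05, adjusted p = 2.41e-13). KIF11, the motor that separates the spindle poles, was at 259 and 259 CPM and at 162, 169 and 166 CPM (−0.64 ± 0.04, adjusted p = 3.17e-13). CCNB1, cyclin B1, was at 342 and 339.9 CPM and at 253, 261 and 257 CPM (−0.41 ± 0.04, adjusted p = 1.65e-10). Treated libraries lay below vehicle libraries in all 3. KIF20B changed by −0.93, CCNA2 by −0.70, KIF4A by −0.67, HMMR by −0.52, CCNB2 by −0.48 and PLK1 by −0.44. KIF2C, a microtubule depolymerase, was the member that rose, from 132 and 128 CPM to 145, 147 and 145 CPM (0.17 ± 0.03).

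A CHR was found in 22 of 34 mitosis promoters (64.7%) against 10.3% of tested genes and 15.4% of all promoters, and a CCAAT box in 28 of 34 (82.4%) against 36.3% of tested genes. Of the 21 mitosis genes with both, 19 fell and the median was −0.47. Among all tested genes with a promoter, 4.26% held both, and their median log2 fold change was −0.07. The CCAAT box alone was not particular to mitosis genes. It was found in 18 of 21 promoters of the unfolded protein response list (85.7%). Of these 18 genes, 4 rose and 5 fell. It was also found in 12 of 16 sterol synthesis promoters, and 11 of these 12 genes fell. Its share was 34.1% for genes lower at least 2-fold and 34.45% for genes higher at least 2-fold. The spindle checkpoint and kinetochore group, in which TTK acts, had 16 of 21 members lower and 5 not called, with a median of −0.16. Without scaling factors 10 were lower and 2 higher. SPC24 and SPC25, subunits of the NDC80 complex that holds microtubules, stood out. SPC24 was at 59.2 and 58.3 CPM and at 30.4, 30.6 and 31.3 CPM (−0.93 ± 0.04), and SPC25 at 36.6 and 35.6 CPM and at 18.9, 19.1 and 19.2 CPM (−0.92 ± 0.04). BUB1 changed by −0.57, MAD2L1 by −0.32 and BUB1B by −0.25.

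Tubulins, the subunits of the spindle and of interphase microtubules, fell late. Of 14, 11 were lower and 1 higher at 24 h, with a median of −0.33, whereas at 6 h 8 had been higher and 3 lower, with a median of 0.20. TUBA4A was at 5.15 and 5.03 CPM in vehicle and at 2.65, 2.54 and 2.78 CPM at 3 µM (−0.94 ± 0.08, adjusted p = 7.84e-11), and TUBA1B at 2022 and 2027 CPM and at 1505, 1509 and 1522 CPM (−0.42 ± 0.03). For TUBB the change was 0.36 at 6 h and −0.61 at 24 h, a difference of −0.97 (adjusted p = 1.2e-15). TUBE1, the epsilon-tubulin of centrioles, rose from 19.6 and 19.5 CPM to 31.1, 31.2 and 30.3 CPM (0.66 ± 0.04). Summed over the list, tubulin transcripts were at 6313 to 6327 CPM in vehicle and at 4579 to 4596 CPM at 3 µM.

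DNA replication genes split, with 13 of 41 higher (31.7%) and 18 lower (43.9%), against 29.7% and 30.9% of all genes tested. Without scaling factors 18 were higher and 9 lower, and the sign of their median turned. RRM2, of ribonucleotide reductase, was at 602 and 590.3 CPM and at 337, 349 and 345 CPM (−0.79 ± 0.03) and POLA1, the primase-bound polymerase, at 99 and 94.2 CPM and at 53.9, 55.9 and 54.1 CPM (−0.82 ± 0.05), whereas the licensing factor CDT1 rose by 0.54. Of 33 DNA damage repair genes, 22 fell and 4 rose, with a median of −0.18, and without scaling factors 14 fell and 7 rose. The fall was smaller than at 6 h, when 27 had been lower with a median of −0.45. For 21 of the 33 the effect at 24 h was above that at 6 h. Over all genes tested 25.6% were above and 23.7% below. CHEK2, the checkpoint kinase, changed by −1.41 at 6 h and by −0.42 at 24 h, and MRE11A, the nuclease of the MRN complex, by −1.76 and −0.63. Polyadenylated transcripts of histone genes, which are normally made without a poly-A tail, were higher for 28 and lower for 8 of the 57 tested of 87 listed, or 31 and 2 without scaling factors. HIST3H2A was at 2.22 and 2.12 CPM and at 5.42, 5.2 and 5.39 CPM (1.30 ± 0.08). At 6 h, 38 had been higher, and for 23 the effect at 24 h was below that at 6 h.

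Genes of the actin cytoskeleton were lower at nearly every member. Serum response factor (SRF) drives these genes at CArG boxes, together with its actin-sensing partners of the MRTF family. CArG boxes were searched after the fall of the list was known, so the shares below are a description. They were found in 7 of 22 promoters of the list (31.8%), in ACTG2, MYLK, CNN2, ACTG1, FLNA, SRF and TPM4, against 1.146% of tested genes and 1.285% of all promoters. Shown are 6 of these 7, with EGR1, an SRF target of another list, from RefSeq on GRCh38.p14, to set the boxes side by side. Boxes are in capitals, and the stretches lie at chr2:73892878-73892977 on the plus strand, chr3:123620579-123620678 on the minus strand, chr19:1026478-1026577 on the plus strand, chr17:81512830-81512929 on the minus strand, chrX:154374665-154374764 on the minus strand, chr6:43171169-43171268 on the plus strand and chr5:138465349-138465448 on the plus strand.
ACTG2: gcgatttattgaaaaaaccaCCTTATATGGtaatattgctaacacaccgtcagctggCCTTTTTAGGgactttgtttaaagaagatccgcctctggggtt
MYLK: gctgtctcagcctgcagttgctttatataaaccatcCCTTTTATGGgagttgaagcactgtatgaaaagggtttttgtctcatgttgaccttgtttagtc
CNN2: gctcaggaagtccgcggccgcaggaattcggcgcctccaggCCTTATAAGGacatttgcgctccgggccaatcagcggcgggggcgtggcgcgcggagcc
ACTG1: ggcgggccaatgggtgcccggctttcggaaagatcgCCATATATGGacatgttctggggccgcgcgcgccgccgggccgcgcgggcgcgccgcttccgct
FLNA: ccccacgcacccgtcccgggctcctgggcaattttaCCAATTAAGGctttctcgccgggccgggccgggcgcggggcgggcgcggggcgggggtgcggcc
SRF: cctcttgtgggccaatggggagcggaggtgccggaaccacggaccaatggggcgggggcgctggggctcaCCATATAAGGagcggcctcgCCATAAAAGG
EGR1: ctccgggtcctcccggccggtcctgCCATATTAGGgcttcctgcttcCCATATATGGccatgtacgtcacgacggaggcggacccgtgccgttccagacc

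Of 24 actin and contractile genes, 23 fell, 6 of them at least 2-fold, and 1 was not called, with a median of −0.69. ACTA2, the smooth muscle actin, was at 172 and 175 CPM in vehicle and at 64.2, 60.1 and 61.3 CPM at 3 µM (−1.49 ± 0.04, adjusted p = 2.24e-22). TAGLN, the actin-binding protein transgelin, was at 315 and 308 CPM and at 130.2, 124 and 128 CPM (−1.29 ± 0.04, adjusted p = 2.18e-20). CNN1, calponin, was at 9.96 and 8.92 CPM and at 2.25, 1.9 and 1.98 CPM (−2.21 ± 0.08, adjusted p = 1.12e-18). The groups were far apart at all 3, and the treated replicates lay close together. ACTG2, with 2 boxes, went from 17.5 and 17.2 CPM to 7.4, 6.76 and 7.12 CPM (−1.29 ± 0.05), MYLK, the myosin light chain kinase, from 316 and 317 CPM to 153, 159 and 153 CPM (−1.03 ± 0.03), and VCL, vinculin of focal adhesions, from 939.6 and 960.0 CPM to 475, 478 and 472 CPM (−1.001 ± 0.04). CNN2, ACTG1, FLNA and SRF, whose boxes are shown, changed by −0.84, −0.36, −0.65 and −0.39.

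These falls arose between the time points. At 6 h, 9 of the 24 had been higher and 9 lower, with a median of −0.04. Of all genes tested 31.6% were higher and 31.6% lower at 6 h, shares close to these. The effect at 24 h was below that at 6 h for 20, against 23.7% of all genes tested. The 6 h values were −0.04 for CNN1, −0.03 for ACTA2, 0.06 for TAGLN and 0.11 for ACTB. Summed over the list, the transcripts made up 20758 to 20764 CPM in vehicle and 13152 to 13299 CPM at 3 µM. EGR1, an immediate early gene that SRF also serves, moved in the opposite direction, from 7.29 and 7.79 CPM to 33.2, 32.3 and 32.5 CPM (2.12 ± 0.46, adjusted p = 0.00225). Of 16 AP-1 and EGR immediate early genes, 10 rose and 3 fell, or 11 and 0 without scaling factors, with JUNB at 15.4 and 15.7 CPM in vehicle and 40.6, 39.8 and 41.8 CPM at 3 µM (1.39 ± 0.12), FOSL1 at 1.33 and FOS at 0.76.

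Genes of the extracellular matrix and its integrin receptors fell too, with 21 of 30 lower and 5 higher and a median of −0.33. COL12A1, a fibril-associated collagen, was at 824 and 868 CPM in vehicle and at 371, 371 and 375 CPM at 3 µM (−1.18 ± 0.10, adjusted p = 9.15e-07), and ITGB5 at 79.2 and 75.1 CPM and at 35.2, 35 and 35.1 CPM (−1.14 ± 0.03, adjusted p = 2.74e-20). LAMB3, a chain of the epithelial laminin, rose from 3.73 and 3.93 CPM to 7.35, 7.98 and 8.42 CPM (1.05 ± 0.09), and the integrins ITGA2 and ITGA3 rose by 0.92 and 0.58. Growth factor receptor kinases were lower for 12 of 20 (60.0%) and higher for 2 (10.0%), or 10 and 5 without scaling factors. The shares over all genes tested were 30.9% and 29.7%. PDGFRB was at 71.1 and 72 CPM and at 41, 36.5 and 35.4 CPM (−0.93 ± 0.05), FGFR4 at 49.6 and 50.02 CPM and at 28.3, 27 and 26.8 CPM (−0.86 ± 0.04), and ERBB2 at 192 and 189.5 CPM and at 121, 115 and 116 CPM (−0.70 ± 0.04). EPHA2 and IGF1R rose, by 0.40 and 0.28.

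Genes of lipid synthesis were mostly lower. Of 21 sterol synthesis genes, which SREBP2 drives when membrane cholesterol is low, 18 fell and 2 rose, with a median of −0.54, and their summed level went from 2254 to 2268 CPM in vehicle to 1508 to 1537 CPM at 3 µM. HMGCS1, an early enzyme of the mevalonate pathway, was at 196 and 201 CPM and at 112, 121 and 118 CPM (−0.76 ± 0.04, adjusted p = 1.81e-15). MSMO1, a sterol demethylase, was at 102 and 102 CPM and at 55.7, 55.7 and 57 CPM (−0.86 ± 0.04), after 0.04 at 6 h. INSIG1, which holds the SREBP proteins back, changed by −0.48, whereas the sterol sensors NR1H3 and NR1H2 rose by 0.75 and 0.59. Of 16 genes of fatty acid synthesis, 12 fell and 4 were not called, with a median of −0.46. ELOVL6, a fatty acid elongase, was at 63.1 and 61.2 CPM and at 38.8, 38.4 and 38.9 CPM (−0.68 ± 0.04), and FADS2 changed by −0.82. The sterol element TCACNCCAC was found in 0 of 16 sterol synthesis and 0 of 14 fatty acid synthesis promoters. Among genes of sterol uptake, regulation and export 1 of 13 held it, and 1.15% of tested genes with a promoter did.

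Lysosome and autophagy genes rose by small amounts, at 23 of 28 with 1 fall and a median of 0.29. GABARAPL1, which coats autophagosomes, was at 12.1 and 11.8 CPM in vehicle and at 23.1, 22.9 and 22.7 CPM at 3 µM (0.94 ± 0.06, adjusted p = 2.76e-13), and its relative MAP1LC3B at 72.9 and 71.7 CPM and at 113, 114 and 114 CPM (0.65 ± 0.04). NEU1, a lysosomal sialidase, rose by 0.48. CTSL fell by 0.13, a call that was lost without scaling factors.

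The translation apparatus changed in parts. Cytosolic ribosomal proteins rose at 34 and fell at 11 of 82, with a median of 0.06, or at 52 and 5 without scaling factors. At 6 h 70 had been higher, with a median of 0.31. For 64 the effect at 24 h was below that at 6 h, against 23.7% of all genes tested. The paralogues RPL22 and RPL22L1 moved in opposite directions. RPL22 was at 179 and 173 CPM in vehicle and at 280.3, 285 and 281 CPM at 3 µM (0.68 ± 0.04), and RPL22L1 at 189 and 180.4 CPM and at 109, 107 and 108 CPM (−0.78 ± 0.06). Ribosome biogenesis factors fell at 27 and rose at 3 of 35, with a median of −0.24, or at 19 and 6 without scaling factors. NOP14 changed by −0.68 and UTP20 by −0.62, after −2.05 at 6 h for UTP20. Proteasome subunits were lower for 23 and higher for 8 of 41, and nuclear oxidative phosphorylation genes lower for 35 and higher for 17 of 78, but without scaling factors the counts were 12 lower and 15 higher and 23 lower and 29 higher, and the sign of both medians turned. UQCRC2, a core subunit of complex III, was at 238 and 232 CPM and at 115, 117 and 116 CPM (−1.02 ± 0.03), and ATP5G1, of the ATP synthase ring, at 88.1 and 89.7 CPM and at 47.4, 44 and 45.8 CPM (−0.96 ± 0.04).

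Transcripts of small nucleolar RNA host genes, whose spliced RNAs are known to be cleared by nonsense-mediated decay, rose at 12 and fell at 2 of 17, with a median of 0.55. ZFAS1 was at 48 and 47.6 CPM in vehicle and at 140.0, 135 and 139 CPM at 3 µM (1.53 ± 0.04, adjusted p = 2.74e-20), SNHG8 at 14.3 and 14.4 CPM and at 29.9, 32.3 and 30.03 CPM (1.10 ± 0.06), and SNHG1 at 118 and 127 CPM and at 246, 229.6 and 232 CPM (0.95 ± 0.04). SNHG1 had stood higher at 6 h, at 1.89, and ZFAS1 lower, at 0.89. Of 133 tested symbols of long intergenic non-coding RNAs, 52 rose (39.1%) and 19 fell (14.3%). Of 359 antisense symbols 147 rose (40.9%) and 48 fell (13.4%). Over all genes tested 29.7% rose and 30.9% fell. Whether the counting used strand is not given in the sources used here, so reads of a gene and its antisense partner cannot be told apart with certainty. DLX6-AS1 was at 10.9 and 10.6 CPM and at 5.24, 5.49 and 5.33 CPM (−1.01 ± 0.07), and HOXA-AS3 at 23.4 and 24.6 CPM and at 11.8, 11.9 and 12 CPM (−1.01 ± 0.05).

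Lists of immune signalling were mixed. Of 24 interferon-stimulated genes tested, 17 rose and 4 fell, with a median of 0.47, yet their summed level was 247.0 to 247.2 CPM in vehicle and 253 to 259 CPM at 3 µM. IRF7, a factor of the interferon response, was at 4.67 and 4.86 CPM and at 10.6, 10.4 and 10.1 CPM (1.12 ± 0.07, adjusted p = 3.86e-14), and ISG15, a ubiquitin-like modifier, at 3.67 and 3.49 CPM and at 6.36, 6.78 and 6.69 CPM (0.88 ± 0.07). DDX58, the RNA sensor RIG-I, fell by 0.47. Of 16 NF-kB subunits and feedback genes, 9 rose and 7 were not called, with NFKB2 at 75 and 76.1 CPM and 118, 118 and 121 CPM (0.65 ± 0.08). Of 24 cytokines and chemokines, 8 rose (33.3%) and 2 fell (8.33%). Of all genes tested 29.7% rose, a share close to that of the cytokines, and 30.9% fell. LIF was at 9.89 and 10.6 CPM and at 34.4, 31.5 and 34.3 CPM (1.71 ± 0.19, adjusted p = 1.17e-05) and CCL20 at 13.9 and 14.9 CPM and at 36.7, 41.3 and 42.6 CPM (1.48 ± 0.17), while CCL2 fell from 2.19 and 2.18 CPM to 0.882, 1.02 and 1.01 CPM. Of 11 genes of HLA class I presentation, 7 rose and 2 fell. HLA-E rose from 64.8 and 64.4 CPM to 126, 126 and 126 CPM (0.96 ± 0.03) and ERAP1, the peptide-trimming peptidase, fell from 55.6 and 53.6 CPM to 22.5, 22.6 and 22.3 CPM (−1.28 ± 0.04).

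To set the late response beside the early one, 3 µM was compared with the vehicle libraries of its own time at 6 h, where 63.2% of genes were called. The times share no library. Of the genes higher at 24 h, 58.1% were also higher at 6 h, which is 54.5% of the genes higher at 6 h, while 13.5% were lower and 28.4% were not called at 6 h. Of those lower at 24 h, 59.3% were also lower at 6 h, which is 58.2% of the 6 h list, and 15.1% were higher. The size of the effect differed between the times for 49.3% of genes, with 25.6% above and 23.7% below at 24 h. The largest gains of the 24 h over the 6 h effect were at SLC7A11, NUPR1, PRKCI, DSCC1, TRIB3 and UTP6, at 2.34 to 2.12. PRKCI, DSCC1 and UTP6 were lower at 6 h, and less so at 24 h. PRKCI, an atypical protein kinase C, was at −2.42 at 6 h and at 155 and 157 CPM in vehicle against 142, 146 and 148 CPM at 24 h (−0.10 ± 0.04), a call that was lost without scaling factors. DSCC1, a cohesion factor of the replication fork, was at −2.89 at 6 h and at −0.64 at 24 h.

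Among the largest losses were SELPLG, CMYA5, BAAT, PTGDR2 and ADCY10, at −3.65 to −2.18, and all 5 were read below 1 CPM in both vehicle libraries at 24 h. BAAT, an enzyme of bile acid conjugation, was at 0.151 and 0.138 CPM in vehicle and at 0.681, 0.617 and 0.667 CPM at 3 µM and 24 h (2.17 ± 0.24), after 5.01 at 6 h. Opposite calls at both times with the largest product were found at SLC7A11, PTK2B, NRIP3, HERC6, ALS2CL and PABPC1L, each lower at 6 h and higher at 24 h. PTK2B, a relative of focal adhesion kinase, changed by −0.64 at 6 h and was at 1.68 and 1.37 CPM in vehicle and 3.85, 3.95 and 4.02 CPM at 3 µM and 24 h (1.36 ± 0.11). HERC6, an interferon-induced ligase, changed by −0.83 and then by 0.78.

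**Figure D3:**
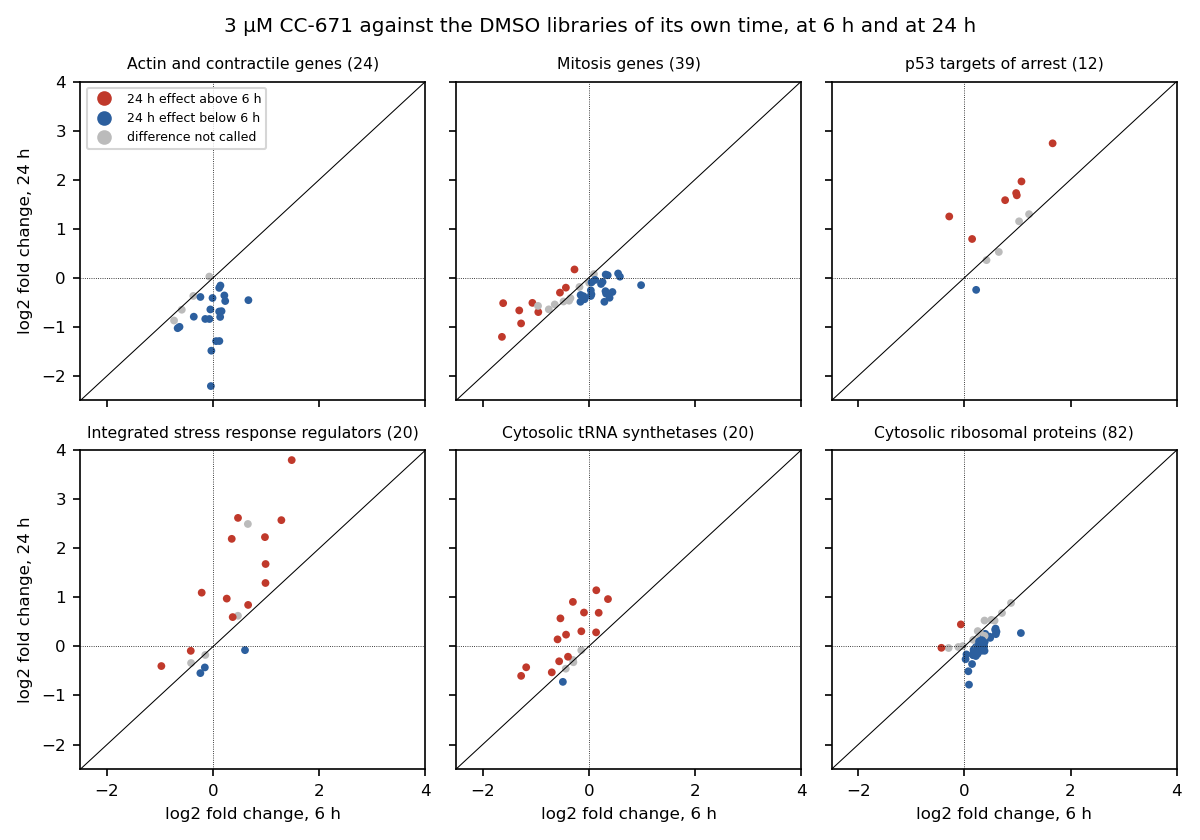
Each point is 1 gene of the list named above the panel, with its log2 fold change at 6 h on the x axis and at 24 h on the y axis, each against the vehicle libraries of that time; the line marks equal effects and colours mark the edgeR test of the difference. By that test 20 of 24 actin genes were below the line and 15 of 20 tRNA synthetases above it.

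Far fewer genes differed between 10 and 3 µM at 24 h than between 3 µM and vehicle. In the direct test of 10 against 3 µM, 6.35% of genes were called, 549 (2.49%) higher and 848 (3.85%) lower at 10 µM. These counts rest on every 3 µM library: without replicate 1, 2 or 3 they were 295, 262 and 254 higher and 563, 474 and 497 lower. With just the groups compared in the fit they were 1876 and 1873. Both doses share the vehicle libraries, so their effects are set side by side without a further test. ACTB was at −0.69 at 3 µM and at −0.84 at 10 µM, CDKN1A at 1.96 and 1.91, ASNS at 1.91 and 1.98, and KIF14 at −1.21 and −1.38. By the direct test 12 of 24 actin genes, 20 of 39 mitosis genes and 7 of 14 tubulins were lower at 10 µM, and 17 of 28 lysosome genes and 9 of 17 small nucleolar RNA host genes were higher. Among p53 targets of arrest 1 of 12 differed, and among stress response regulators 3 of 20.

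The largest differences above 3 µM were at GPNMB, NUPR1, FAM129A, IFI35, LOX and WIPI1. GPNMB, a lysosome-linked glycoprotein, was at 3.36 and 2.66 CPM in vehicle, at 6.87, 7.57 and 7.38 CPM at 3 µM and at 12.1, 12.8 and 13.4 CPM at 10 µM (10 against 3 µM 0.81 ± 0.06, adjusted p = 1.12e-08). LOX, lysyl oxidase, was at 4.31 and 4.18, at 12.2, 11.1 and 11.5 and at 15.6, 15.9 and 16.8 CPM (0.47 ± 0.05, adjusted p = 2.01e-06). At both genes the 3 groups lay in the order of dose without overlap. Between 10 and 3 µM the rule that picked them required this. Below 3 µM the largest differences were at DPYSL5, TUBA4A, TTN, MEMO1, FOXJ1 and ZNF467. DPYSL5, a microtubule-associated protein of neurons, was at 4.67 and 4.03, at 1.47, 1.65 and 1.58 and at 0.978, 0.992 and 1.19 CPM (−0.57 ± 0.10, adjusted p = 0.000764).

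**Figure D4:**
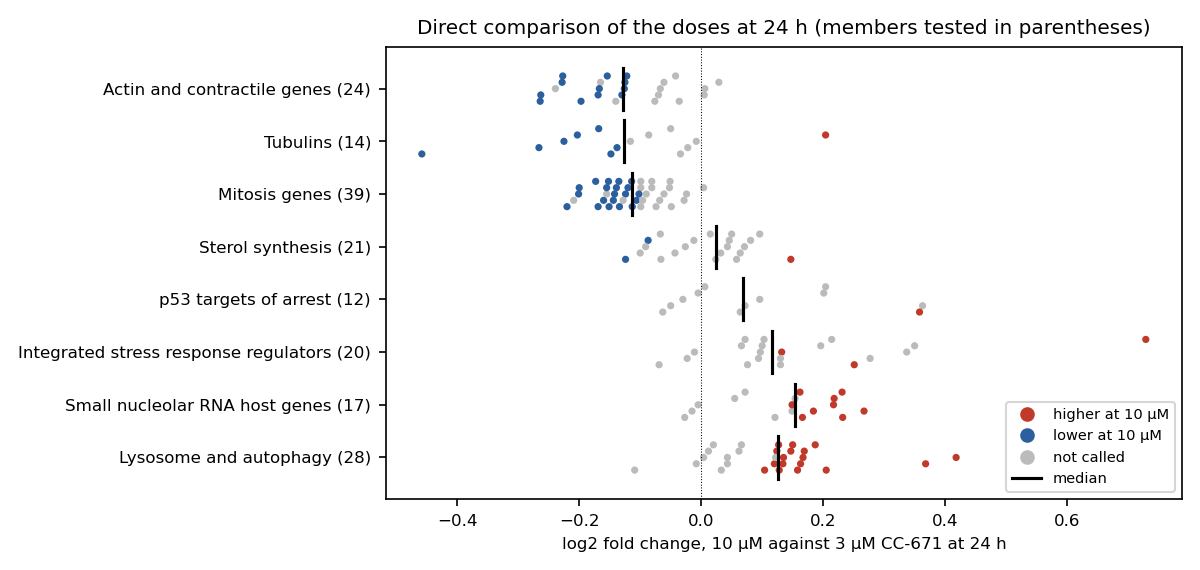
Each point is 1 gene, placed by its log2 fold change at 10 against 3 µM at 24 h; rows are gene lists with the number of members tested, bars are medians, and colours mark the edgeR calls. Calls below 0 lie mainly in the actin, tubulin and mitosis rows and calls above 0 in the lysosome and small nucleolar RNA host gene rows.

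Across protein-coding genes, the response at 24 h leaned with the length of the gene from first to last exon, introns included. Genes were matched by symbol to GENCODE 29, which is on another build than the counts. Of genes under 5 kb, 38.3% were higher and 25.6% lower, with a median of 0.08, and of genes of 500 kb or more 8.74% were higher and 58.3% lower, with a median of −0.30. The lean held among genes whose average log2 CPM was at least 3, where the medians went from 0.02 to −0.29. It was also present at 6 h, when the medians of the shortest and longest genes were 0.18 and −0.24. Among genes with 5 to 9 exons, those under 20 kb had a median of 0.05 and those of 200 kb or more one of −0.21. These medians were 0.02 and −0.17 with 10 exons or more but fewer than 20, and 0.05 and −0.26 with 20 or more. With fewer than 5 exons they were 0.04 and −0.135 (22 genes), but genes of 100 to 200 kb were at 0.005. Medians also differed with exon number. They were 0.01 for 1 exon and −0.175 for 33 or more at 24 h. At 6 h they were 0.13 and −0.38. Whether length or exon number carries the lean was not tested. Among genes whose average log2 CPM was at least 3, the median log2 level in each library of 674 genes of 200 kb or more, less that of 3278 genes under 20 kb and centred on each gene's mean, was −0.10, −0.07 and −0.09 at 3 µM and 0.13 and 0.12 in vehicle. The groups were apart by −0.21, for which an exact two-sided permutation test gave p = 0.1, the smallest that 10 arrangements allow. Of the 15 largest falls, 9 span 100 kb or more and their median is 168.6 kb, against 32.5 kb for all coding genes tested.

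**Figure D5:**
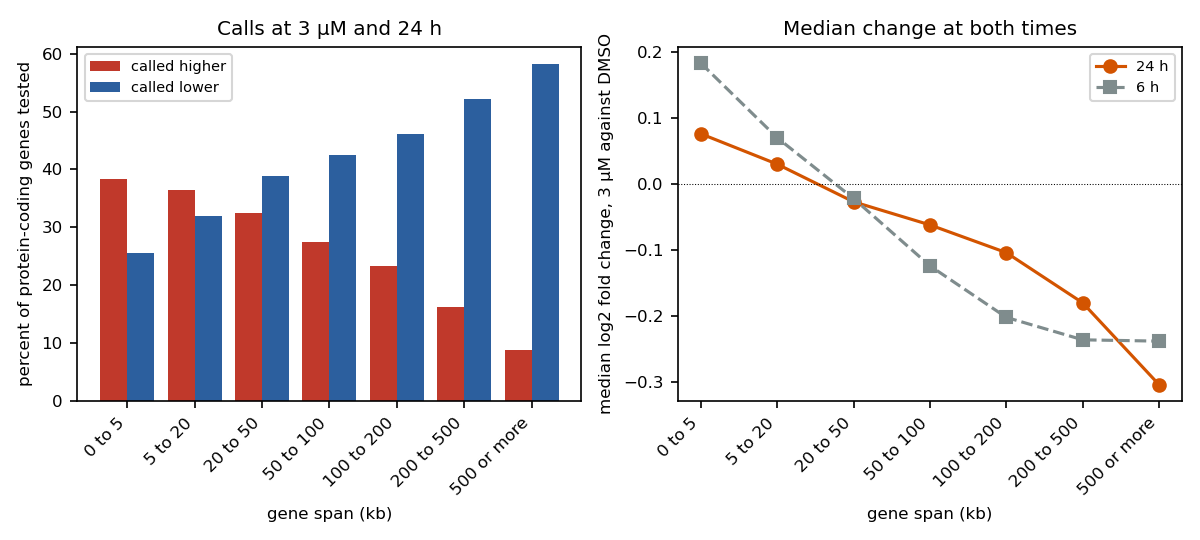
Left, the percent of protein-coding genes called higher and lower at 3 µM and 24 h in 7 bands of gene span (kb, bars from 0); right, the median log2 fold change in the same bands at 24 h and 6 h. The share called lower goes from 25.6% in the shortest band to 58.3% in the longest.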

How the data were processed

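Poly-A RNA of CAL51 cells was sequenced as strand-specific paired reads. The deposited files hold raw counts of read pairs per gene symbol for each library, made by the authors; STAR, HTSeq, edgeR and the build hg19 are named in the submitters' processing notes without versions. Their strand setting, gene annotation and handling of overlaps: not given in the sources used here. Rows that name no gene, 17.3 to 19.4% of pairs in the 5 libraries, were left out of library sizes and tests.

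Genes passed a filter of 10 counts (edgeR filterByExpr, total of at least 15), which left 22007 of 55510 symbols. All 16 libraries were fitted with 6 group means in edgeR 4.0.16 under R 4.3.3 (TMM scaling, robust quasi-likelihood F test, Benjamini-Hochberg adjustment over all genes tested, called at an adjusted p under 0.05). Errors beside log2 fold changes are standard errors, and CPM values use TMM-scaled library sizes. On simulated counts with 200 changed genes, 64 of 67 genes changed 1.5-fold and all changed 2-fold or 4-fold were called, with 7.51% false calls among the calls. The changed genes were drawn from those above 1 CPM, so this recovery does not speak for weaker genes. Far fewer genes were changed than were called in the data, so the share of false calls does not carry over. The gene lists were chosen with earlier results of these data known. Described genes are the 15 largest changes each way at an average log2 CPM of at least 1 without overlap of groups, the 8 largest differences in CPM, up to 6 leading members and 3 opposite members of each list, members needed for their role, the 6 largest differences in time and dose, and 4 non-coding genes each way. Alternatives were DESeq2 1.42.0, limma-voom 3.58.1, other scaling and filters, the replicate number as a block, fewer groups, and each library left out. Promoters (250 bases before to 50 after the start, 12483 of 22007 genes matched by symbol) came from RefSeq on GRCh38.p14. Gene spans came from GENCODE 29, by symbol for 16708 genes and by an older symbol for 813. Some genes that this rule picks are not reported here.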

Additional observations from a re-analysis of the deposited data

Results flagged for a closer look

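At 16 genes named for it, the effect of 3 µM CC-671 at 24 h differed from its effect at 6 h by the edgeR test of the difference. On the log2 scale the effect at 24 h was higher by 2.34 at SLC7A11, 2.32 at NUPR1, 2.31 at PRKCI, 2.25 at DSCC1, 2.15 at TRIB3, 2.12 at UTP6, 2.01 at PTK2B, 1.80 at PABPC1L, 1.77 at NRIP3, 1.61 at HERC6 and 1.59 at ALS2CL. It differed by −3.65 at SELPLG, −3.23 at CMYA5, −2.85 at BAAT, −2.29 at PTGDR2 and −2.18 at ADCY10. These genes were picked for the size of this difference or for opposite calls at the 2 times, so their adjusted p-values are no independent support. Of other genes described, the same difference was 0.25 at CLK3, 0.32 at CLK2, −0.42 at CLK4, −0.20 at CLK1, −1.24 at HNRNPDL, −0.97 at TUBB, −1.29 at CCDC13, −1.35 at TBCD, −1.63 at FRZB, −0.95 at PIGN and −0.64 at ATP8A1.

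Read pairs outside annotated exons, which enter no comparison of genes, were 5.80% of uniquely aligned pairs at 3 µM and 24 h against 4.43% in vehicle.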

How the results depend on the processing

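The counts of higher and lower genes stayed within 1.5 times of 6529 and 6810 under every alternative run. With a stricter count filter, 605 genes rose and 197 fell at least 2-fold, in place of 1898 and 560; fewer genes were tested, 14718 in all. With only the groups compared in the fit, 10 µM differed from 3 µM at 1876 genes higher and 1873 lower, in place of 549 and 848; the cause was not tested. Leaving out each library in turn gave 5329 to 6156 genes higher and 5772 to 6465 lower, 1651 to 1852 and 543 to 564 at least 2-fold, 5029 to 5648 and 4515 to 4874 for the difference between times, and 254 to 475 and 474 to 746 for dose. Libraries with the same replicate number did not deviate together (r = −0.36 and −0.33 across 13067 genes), and with the replicate number as a block 6372 genes were higher and 6680 lower. TTK was called lower in that fit (−0.09, adjusted p = 0.0483), whereas over its other alternatives the adjusted p was 0.0731 to 0.613. The sign of TTK turned without scaling factors (0.038), and that of WIPI1 without scaling factors (0.03) and, in a range of −0.148 to 0.01 over left-out libraries, without vehicle replicate 1. List medians near 0 changed sign without scaling factors for core spliceosome, BCL2 family, unfolded protein response, heat shock, cohesion, replication, mitochondrial ribosomal protein, proteasome, oxidative phosphorylation, initiation factor, MYC network, BMP and TGF-beta, and aryl hydrocarbon receptor genes. Medians of CDK inhibitors and mitochondrial genome symbols changed sign when 1 library was left out.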

Other observations

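Of 18 circadian clock genes, 11 rose and 4 fell at 24 h, or 13 and 2 without scaling factors, with a median log2 fold change of 0.41 against 0.0008 over all genes tested. PER2, a repressor of the clock, was at 15.7 and 16 CPM in vehicle and at 24.6, 24.2 and 25.1 CPM at 3 µM (0.64 ± 0.05, adjusted p = 2.8e-11 by edgeR). Of 17 hypoxia targets, 10 fell (58.8%) and 4 rose (23.5%), with a median of −0.23. Of all genes tested 30.9% fell and 29.7% rose. PDK1, which keeps pyruvate out of mitochondria, was at 17.7 and 17.3 CPM and at 9.53, 10.4 and 10.2 CPM (−0.80 ± 0.05, adjusted p = 1.31e-13 by edgeR), while VEGFA, the vessel growth factor, was at 70.5 and 73.9 CPM and at 162, 148 and 153 CPM (1.10 ± 0.07, adjusted p = 8e-09 by edgeR). Of 465 zinc finger genes with ZNF symbols, 199 rose (42.8%) and 99 fell (21.3%), or 262 and 57 without scaling factors, with a median of 0.06. At 10 against 3 µM 38 were higher and 7 lower, where 2.49% and 3.85% of all genes tested were.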
